A study of Mus musculus with 12 samples.

Results

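The heterotrimeric G protein and RGS genes of the mouse were followed across 6 lists of m1A peaks from the caudate putamen. Members were the protein-coding genes of RefSeq's GRCm38.p6 table whose symbols name an α subunit (Gna), a β subunit (Gnb), a γ subunit (Gng) or a regulator of G protein signalling (Rgs), without Gnal, Gng7 and Rgs9. That gave 53 genes of 21896 protein-coding genes with a span: 15 α, 5 β and 11 γ subunit genes and 22 Rgs genes, the last including the binding-protein genes Rgs7bp and Rgs9bp. A peak was counted for a gene when its summit, the position of highest tag coverage, lay within the gene's span. By that rule 123 peaks fell in 19 of the 53 genes, and they merged into 60 regions where peaks of any library shared at least 1 bp.

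m1A, methylation of adenosine at its first nitrogen, was measured by pulling fragmented RNA down with an m1A antibody and sequencing it beside an input. All tissue came from adult male Tet1 fl/fl mice, in which both copies of Tet1 carry loxP sites. The control group received AAV-EGFP and kept the genotype Tet1 fl/fl, and the KO group received AAV-Cre-EGFP, which gave Tet1 delta/delta. Tissue was taken 2 weeks after injection of virus into the caudate putamen. Each group had 3 pull-down libraries, and each peak list was called against the input of the same number. The labels name no promoter for Cre and do not say how many cells the virus reached, nor whether the numbered libraries came from separate animals. The spread behind the p-values below is therefore one between libraries and may be purely technical.

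The caller used 459332 to 1097292 pull-down tags in the controls and 1235247 to 2508102 in KO, so the deepest control lay below the shallowest KO library. Control 1 was the shallowest and the only one called with all duplicate tags kept, and KO 2 was the deepest. The caller's tag size was 110, 62 and 79 in controls 1, 2 and 3 and 86, 52 and 70 in KO 1, 2 and 3. Its part in the calls was not tested. The lists held 3004 to 6947 peaks. Of 10 markers of striatal medium spiny neurons, 8 had a peak in some library and 3 in all 6 (Ppp1r1b, Pde10a and Adcy5), while Drd1 and Tac1 had none. The cortical marker Slc17a7 and the oligodendrocyte marker Mbp also had a peak in all 6 libraries. Marker genes with a peak numbered 3 to 6 of 10 per library for medium spiny neurons, 1 to 3 of 5 for cortical excitatory neurons, 1 to 5 of 6 for oligodendrocytes, 0 to 2 of 6 for both astrocytes and microglia, and 0 to 1 of 4 for endothelium. Oligodendrocyte markers with a peak were at 1 in control 1 and at 4 or 5 in the other 5 libraries. A peak list holds nothing outside its peaks, so a gene without a peak may still carry m1A, and may still be expressed, below what the depth allowed to be called. In bulk tissue fewer cells of a type and less RNA per cell cannot be told apart.

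Heterotrimeric G proteins carry the signal of seven-helix receptors into the cell. The receptor makes the α subunit exchange GDP for GTP and part from the βγ pair, after which both act on enzymes and channels. RGS proteins speed the hydrolysis of GTP by α subunits and so end the signal. In the striatum this machinery couples dopamine, acetylcholine, adenosine, opioid and cannabinoid receptors to cyclic AMP, phospholipase C and potassium channels.

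RefSeq's table of start windows on GRCm38.p6 held 39 of the 53 members with 51 annotated starts. Gnai2, Gnaz and Rgs20, which had peaks, were not in it. The 100 bases before the start are shown here, 5′ to 3′ in the transcribed direction, for the 5 genes with a summit within 500 bp of a start in at least 3 libraries, since these are the starts at which the members' peaks recurred. Where a gene had several starts the outermost is shown. Capitals mark each GGGCGG or its reverse complement CCGCCC, the core letters bound by Sp1-type factors. The windows lie at chr4:155491261-155491360 (+ strand), chr5:18360414-18360513 (− strand), chr8:93810738-93810837 (+), chr6:66896297-66896396 (+) and chr1:175492546-175492645 (−) in the order of the lines.
Gnb1: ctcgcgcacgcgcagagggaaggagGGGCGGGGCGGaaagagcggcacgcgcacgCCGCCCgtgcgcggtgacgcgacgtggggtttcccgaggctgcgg
Gnai1: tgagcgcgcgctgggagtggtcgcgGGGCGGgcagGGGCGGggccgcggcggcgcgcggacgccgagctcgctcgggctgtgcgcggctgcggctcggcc
Gnao1: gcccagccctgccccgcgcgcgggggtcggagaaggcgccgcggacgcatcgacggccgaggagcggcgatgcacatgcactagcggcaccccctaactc
Gng12: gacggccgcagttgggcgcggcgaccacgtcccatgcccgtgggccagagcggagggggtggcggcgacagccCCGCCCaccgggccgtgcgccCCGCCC
Rgs7: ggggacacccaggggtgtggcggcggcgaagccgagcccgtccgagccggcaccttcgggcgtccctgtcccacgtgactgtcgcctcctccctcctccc

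All 5 windows were rich in G and C, which made up 77% of the bases for Gnb1, 85% for Gnai1, 75% for Gnao1, 82% for Gng12 and 75% for Rgs7. The motif was found 3 times in Gnb1, where 2 of the copies overlap, and 2 times each in Gnai1 and Gng12. It was searched on both strands of the 250 bases before each start, and 42.6% of 21262 protein-coding starts held it. Among the members it stood at 7 of 12 starts with a summit within 500 bp (58.3%) and at 16 of 39 other starts (41.0%). The 12 starts belong to 10 genes, since Gng12 and Rgs19 enter with 2 starts each through the same summits. The median G and C content of those 250 bases was 73.8% at the 12 starts, 58.8% at the 39 others and 55.6% over all protein-coding starts. TATAAA, searched only in the transcribed direction in the 50 bases before the start, was at 1.96% of member starts and 3.17% of all starts. A match says only that these letters are in the window.

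Summits of a single member lay inside a window of the table. The 3 peaks of Gng12, which encodes a γ subunit, lay between its outer and inner starts, 100 to 198 bp before the inner one. The 30 bases around each summit, with the summit base in capitals, show that the 3 libraries did not share 1 position. They span chr6:66896706-66896735 in control 2, chr6:66896678-66896707 in control 3 and chr6:66896776-66896805 in KO 3, all on the + strand.
Gng12 control 2: cccgctggggcgcgaGtggcccctgaggct
Gng12 control 3: ggccagccggggcccAcagacgcgagagcc
Gng12 KO 3: ggaaggcccgggaaaAgccgccaggtcgcg
G and C made up 80% of the first 2 stretches and 73.3% of the last. The fold enrichments there, which the caller gives as pull-down over local background, were 8.15 in control 2, 6.84 in control 3 and 10.7 in KO 3. The span of 4930597O21Rik covers the same place, so reads cannot be assigned to 1 of the 2 genes.

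The α subunit genes were called most often of the 4 families. Of 15, 9 had a peak in some library and 4 in all 6, against 1 of 5 β subunit genes, 3 of 11 γ subunit genes and 6 of 22 Rgs genes. Over all members 19 of 53 (35.8%) had a peak, beside 26.3% of all protein-coding genes. Members with a peak in all 6 libraries numbered 6 of the 19 (31.6%), beside 8.74% of all protein-coding genes with a peak. Members called in 1 library alone numbered 2 (10.5%), beside 42.3%. The 19 genes with a peak had a median span of 68.0 kb and the 34 without one 14.8 kb, and over all protein-coding genes these medians were 40.9 and 12.7 kb. The part of gene length and of transcript abundance in these counts was not tested.

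**Figure D1:**
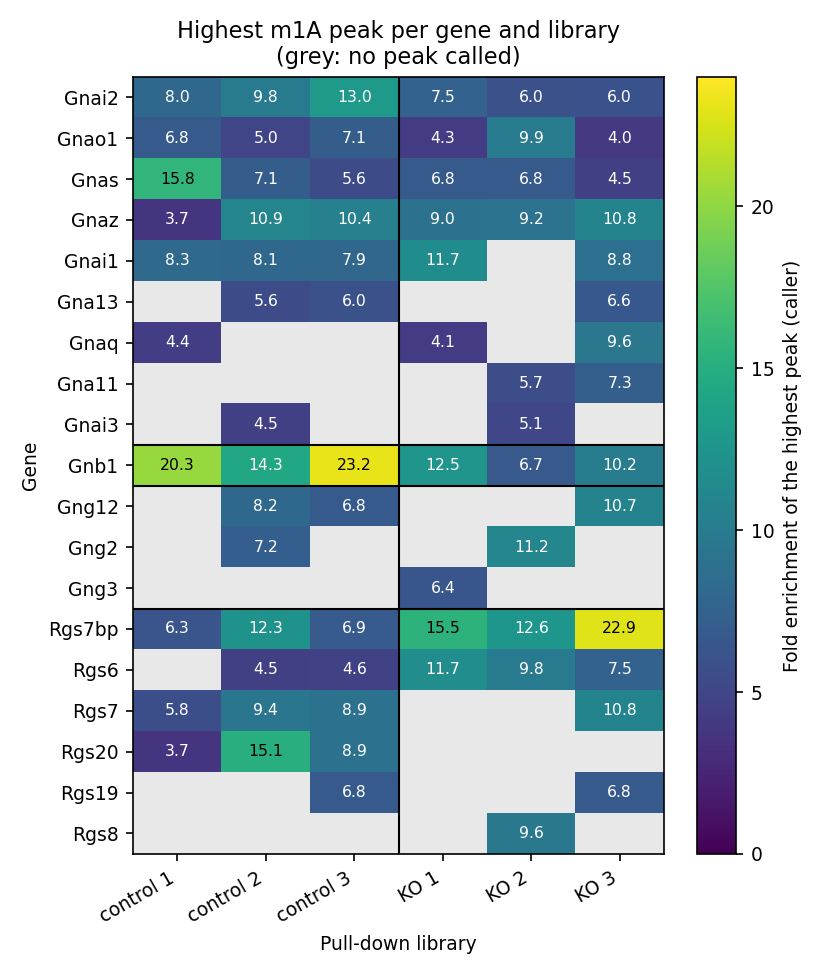
Highest fold enrichment, as given by the peak caller, among the peaks of each of the 19 genes (rows, in the order α, β, γ and RGS, divided by lines) in each pull-down library (columns); grey means that no peak was called. Gnai2, Gnao1, Gnas, Gnaz, Gnb1 and Rgs7bp are filled in all 6 columns, and Rgs20 in the 3 control columns alone.

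Among the inhibitory α subunits, Gnai2 was called at the same place in every library. It encodes a subunit that lowers adenylyl cyclase activity. Its region lay at chr9:107634937-107635312, with summits 246 to 285 bp from the nearer end of the gene's span and within 39 bp of each other. Fold enrichment there was 8.04, 9.81 and 13.0 in controls 1, 2 and 3 and 7.52, 5.98 and 6.03 in KO 1, 2 and 3. Every control value was above every KO value. Within its own list the peak stood at percentiles 85.0, 77.6 and 90.9 of fold enrichment in controls 1, 2 and 3 and at 56.6, 28.4 and 27.9 in KO 1, 2 and 3. Over the 363 regions in protein-coding genes called in all 6 libraries, 15.2% had lower fold enrichment in every KO library and 2.48% higher. Each fold was computed against its own input at its own depth, and control 1 kept its duplicates, so these values describe each list and were not tested as a change.

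Gnai2 also had a second region, at chr9:107620085-107620438, that each KO library had and every control lacked. Its folds were low, at 4.02, 3.89 and 5.52 in KO 1, 2 and 3, which placed the peaks at percentiles 5.91, 5.40 and 20.7 of their lists. KO 1 had one further peak near the other end of the span with a fold of 5.42.

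Gnai1, another inhibitory α subunit gene, had a region 152 to 200 bp after its annotated start, at chr5:18360141-18360347. It was called in the 3 controls, KO 1 and KO 3, with folds of 8.32, 8.11 and 7.92 in the controls and 11.7 and 8.78 in KO. The deepest library, KO 2, was the one that lacked it. Both KO values were above the 3 control values. Gnai3 had 1 peak in control 2 (fold 4.53) and 1 in KO 2 (5.10), 16810 and 537 bp after the start, so no place was shared.

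Gnaz, which encodes an inhibitory α subunit of neurons, was called in all 6 libraries through several places. Its most shared region, chr10:74967217-74967545, had summits 154 to 198 bp inside the edge of the span with the lower coordinate. It had folds of 10.9 and 10.4 in controls 2 and 3 and of 9.17 and 10.8 in KO 2 and 3, so the groups overlapped. Control 2 and KO 1 shared another region with folds of 9.73 and 9.02. Control 1 was called only through a peak of its own with a fold of 3.68 and a pileup, the tag coverage at the summit, of 3. The span of Rsph14 covers all of these summits, so the reads cannot be assigned to Gnaz alone.

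Gnao1 encodes the α subunit of Go, which is abundant in brain, and it had the most regions of any member, 10, over a span of 159 kb. A region at the start, chr8:93810631-93811536, was called in controls 2 and 3 with folds of 5.05 and 7.06 and in KO 2, where it held 2 peaks, and KO 3 with highest folds of 2.54 and 3.30. The control summits lay 260 to 282 bp after the start and the KO summits 358 to 501 bp after it. A second region, 148180 to 148340 bp after the start, was called in controls 2 and 3 and in KO 1 and 3 with low folds of 2.74 to 3.96. KO 2 alone contributed another 6 places, 10563 to 158131 bp after the start, with folds of 4.22 to 9.89. KO 1 added 1 place with a fold of 4.27. Control 1 was called only through 1 place of its own, with a fold of 6.82, so the presence of Gnao1 in all 6 lists rested on different sites.

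Gnas encodes the α subunit of Gs, which stimulates adenylyl cyclase, from an imprinted locus with several starts. Its region at chr2:174345835-174346685 was called in all 6 libraries, 361 to 408 bp before the far end of the span rather than near a start. Fold enrichment was 15.8, 7.11 and 5.61 in controls 1, 2 and 3 and 6.78, 3.74 and 4.53 in KO 1, 2 and 3. The groups overlapped, since control 3 was below KO 1. The summits of the 6 libraries lay within 47 bp, and pileups were high, at 44 to 70. Elsewhere in the gene KO 1 had a peak with a fold of 4.61 and KO 2 a peak with a fold of 6.82.

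Gnaq and Gna11 encode α subunits that activate phospholipase C. Gnaq had a region 86929 to 86938 bp after its start in KO 1 and KO 3, with folds of 4.14 and 4.15, and no control had a peak there. Its other peaks were single ones in control 1 (4.36) and KO 3 (9.56). Gna11 had 1 peak each in KO 2 (5.66, 362 bp after the start) and KO 3 (7.28, 10339 bp after it) and none in a control. Gna13, whose product acts on cell shape, had a start region in controls 2 and 3 with folds of 5.61 and 5.95 and summits 255 to 260 bp after the start, under which Gm11696 also lies. KO 3 had a peak of 6.57 in Gna13 at another place, 12146 bp after the start. Gna12, Gna14, Gna15 and the sensory genes Gnat1, Gnat2 and Gnat3 had no peak in any list.

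Gnb1, the gene of the β subunit β1, was the β subunit gene with peaks, and it had 20 peaks in 6 regions. Its start region at chr4:155491460-155491976 was called in every library with summits 239 to 254 bp after the start, within 15 bp of each other. Fold enrichment there was 20.3, 14.3 and 23.2 in controls 1, 2 and 3 and 8.26, 5.60 and 8.61 in KO 1, 2 and 3, so every control value was above every KO value. The control peaks ranked at percentiles 97.9, 92.6 and 98.9 of their lists, and the KO peaks at 66.1, 22.5 and 64.8. The deeper KO libraries had lower pileups here, 10, 10 and 19 in KO 1, 2 and 3 beside 22, 39 and 34 in the controls. As for Gnai2, the difference between lists was not tested.

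Inside Gnb1 a region was called in KO lists alone, and another had the opposite order of folds. Every KO library was deeper than every control, and the part of depth in these calls was not tested. A region 24383 to 24434 bp after the start, chr4:155515657-155515828, was found in each KO list and in none of the control lists, with folds of 12.5, 6.69 and 10.2 in KO 1, 2 and 3. These peaks were 165 to 171 bp long, close to the shortest length the caller allows, which is its modelled fragment of 163 to 166 bp in KO. A region 36073 to 36198 bp after the start, chr4:155527305-155527652, had folds of 2.93 and 2.96 in controls 2 and 3 and of 7.90, 6.08 and 7.54 in KO 1, 2 and 3. The control summits there were at 36073 and 36114 bp and the KO summits at 36180 to 36198 bp, so the peaks of the 2 groups overlapped without sharing a summit. A region at 43960 to 43983 bp showed no such order, with folds of 6.80 and 9.50 in controls 2 and 3 and of 7.03 and 8.78 in KO 1 and 3. Whether these places are exons was not analysed here. Gnb2, Gnb3, Gnb4 and Gnb5 had no peak in any list.

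**Figure D2:**
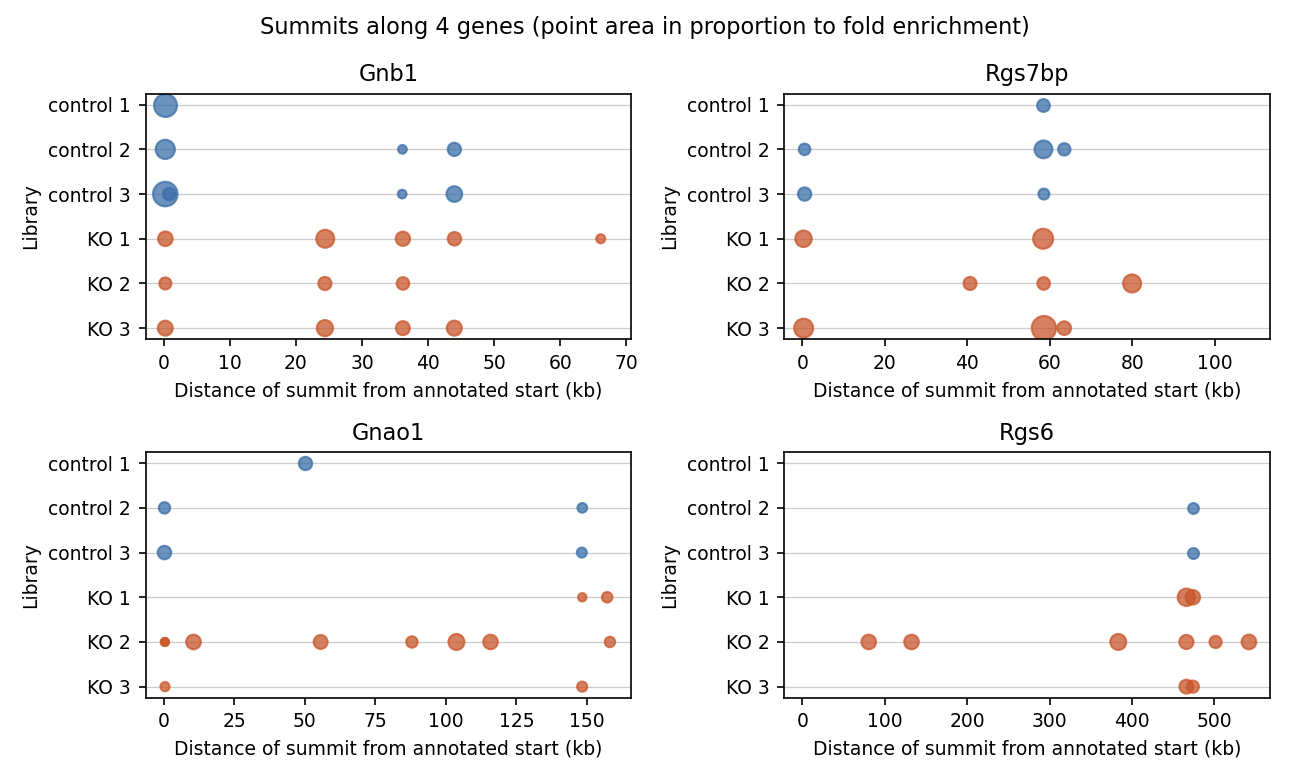
Distance of each m1A summit from the annotated start in kb (horizontal) by pull-down library (vertical) for Gnb1, Rgs7bp, Gnao1 and Rgs6; point area is in proportion to fold enrichment, blue is control and orange KO. In Gnb1 the largest points are those of the controls at the start, and the column of points 24383 to 24434 bp from it holds KO libraries alone; in Gnao1 and Rgs6 the scattered single points are mostly those of KO 2.

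The γ subunit genes were called in few libraries, and none showed a place shared between the groups except Gng12. Gng2 had 1 peak in control 2 (fold 7.15) and 1 in KO 2 (11.2) at different places. Gng3, whose short span overlaps Bscl2, had 1 peak in KO 1 (6.39), 160 bp after the start. The other 8, Gng4, Gng5, Gng8, Gng10, Gng11, Gng13, Gngt1 and Gngt2, had none, and their median span was 5.08 kb against 105 kb for the 3 with a peak.

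Rgs7bp was the one member of the RGS group called in all 6 libraries. It encodes a palmitoylated protein that anchors RGS proteins of the R7 group, to which Rgs6 and Rgs7 belong, at the plasma membrane. Its region at chr13:104996194-104996656, inside the gene and 58401 to 58598 bp after the start, had folds of 6.32, 12.3 and 4.68 in controls 1, 2 and 3. In KO 1, 2 and 3 they were 15.5, 6.15 and 22.9, so the groups overlapped through KO 2. A second region at the start was called in controls 2 and 3 with folds of 5.16 and 6.89 and in KO 1 and 3 with 10.6 and 14.0. The control summits lay 512 to 524 bp after the start and the KO summits 264 to 286 bp after it. The control 3 peak shared no base with the KO peaks, and only the wider control 2 peak joined them into 1 region. This is the reverse of the order seen at the start of Gnao1, and neither difference in position was tested. Elsewhere in Rgs7bp KO 2 had peaks of its own with folds of 12.6 and 6.61. Control 2 and KO 3 shared a further region with folds of 5.95 and 7.22.

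Rgs6 and Rgs7 gave different patterns. Rgs6 had a region 466110 to 466128 bp after its start, chr12:83083500-83083757, with folds of 11.7, 7.77 and 7.51 in KO 1, 2 and 3 and no peak in any control. A neighbouring region, 473941 to 473991 bp after the start, was called in controls 2 and 3 with folds of 4.53 and 4.64 and in KO 1 and 3 with 8.12 and 5.75. KO 2 contributed another 5 single peaks along the 546 kb span. Rgs7 had a region 191 to 214 bp after its start with folds of 9.45, 8.93 and 10.8 in control 2, control 3 and KO 3, and control 1 had 2 peaks elsewhere in the gene with folds of 5.76 and 3.84.

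Rgs20, which encodes a regulator known to act on Gz, the product of Gnaz, was called in the 3 controls and in no KO library. It was the single member with that pattern, 1 of 19, beside 0.815% of all protein-coding genes with a peak. The pattern did not rest on 1 place. Controls 2 and 3 shared a region at chr1:5018191-5018667 with folds of 15.1 and 8.95, and control 1 had a peak at another site with a fold of 3.73 and a pileup of 3. Rgs19 had 1 peak each in control 3 (6.84) and KO 3 (6.76), 76 and 260 bp after a start, and Rgs8 had 1 in KO 2 (9.57). The other 16 genes of the group had no peak: Rgs1, Rgs2, Rgs3, Rgs4, Rgs5, Rgs9bp, Rgs10, Rgs11, Rgs12, Rgs13, Rgs14, Rgs16, Rgs17, Rgs18, Rgs21 and Rgs22.

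No member had a peak in every KO list and in none of the controls, beside 1.73% of all protein-coding genes with a peak. At the level of regions the order was turned. Of the 60 member regions 3 had a peak in every KO list and in no control list, the ones in Gnb1, Gnai2 and Rgs6 above, and 0 had the opposite pattern. Over the 11832 regions in protein-coding genes these patterns took 1.23% and 0.685%. Regions called in all 6 libraries numbered 4 (6.67%), in Gnai2, Gnas, Gnb1 and Rgs7bp, beside 3.07% over all such regions, and 37 of the 60 regions (61.7%) came from 1 library, beside 68.6%. Counts this small against these shares are a description of the members and no test of them. With peaks of at least 4-fold enrichment, or of −log10 q 5 or more, the Gnai2 region was called in 2 KO libraries. With lists of equal length it was called in 1 and the Rgs6 region in 2. The Gnb1 region was still called in 3 KO libraries in these 3 settings. Its 0 control libraries could not change, since each of these settings only removes peaks.

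The number of members called per library overlapped between the genotypes. It was 10, 14 and 13 in controls 1, 2 and 3 and 10, 11 and 14 in KO 1, 2 and 3, or 12.3 ± 2.08 (SD, n = 3) against 11.7 ± 2.08, and the exact two-sided permutation test gave p = 1 (adjusted p = 1 over 6 measures). Of all protein-coding genes, 9.89%, 10.6% and 9.38% had a peak in controls 1, 2 and 3 and 11.1%, 14.9% and 9.41% in KO 1, 2 and 3. Of those genes, members made up 0.462%, 0.601% and 0.633% in controls 1, 2 and 3 and 0.410%, 0.337% and 0.679% in KO 1, 2 and 3. KO 3 held the highest share and KO 2 the lowest, and the exact permutation p was 0.5 (adjusted 0.6).

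Peaks in these genes numbered 12, 20 and 18 in the controls and 20, 30 and 23 in KO. No KO library was below any control, and control 2 and KO 1 were tied at 20. The means were 16.7 ± 4.16 and 24.3 ± 5.13 (SD, n = 3), and the exact permutation test gave p = 0.2 (adjusted 0.6), where 0.1 is the smallest p that 3 libraries against 3 allow. Depth moved with this count. Per 1000000 used tags the direction turned, with 21.7 ± 4.02 peaks in control and 15.1 ± 2.78 in KO (exact permutation p = 0.1, n = 3, adjusted 0.6). Used tags themselves separated the groups fully, and those of control 1 include duplicates. This ratio therefore cannot be told apart from depth. With lists of equal length the difference in peaks fell from 7.67 to 2.67, and without KO 2 to 4.83.

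Near gene starts the members followed the lists they came from. Summits within 500 bp of an annotated start, among member summits in genes with one, made up 2 of 9, 6 of 16 and 7 of 15 in controls 1, 2 and 3 and 4 of 16, 3 of 26 and 7 of 20 in KO 1, 2 and 3. As percentages these were 22.2, 37.5 and 46.7 in the controls and 25.0, 11.5 and 35.0 in KO. The means were 35.5 ± 12.3% in control and 23.8 ± 11.8% in KO (SD, n = 3), and the groups overlapped, with an exact permutation p of 0.4 (adjusted 0.6). Over the summits of all protein-coding genes the share was 17.5%, 40.6% and 42.7% in the controls and 32.5%, 12.0% and 39.4% in KO. Control 1 and KO 2 were lowest in both. Of the 14 member regions called in at least 3 libraries in genes with an annotated start, 6 had a summit within 500 bp of it.

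**Figure D3:**
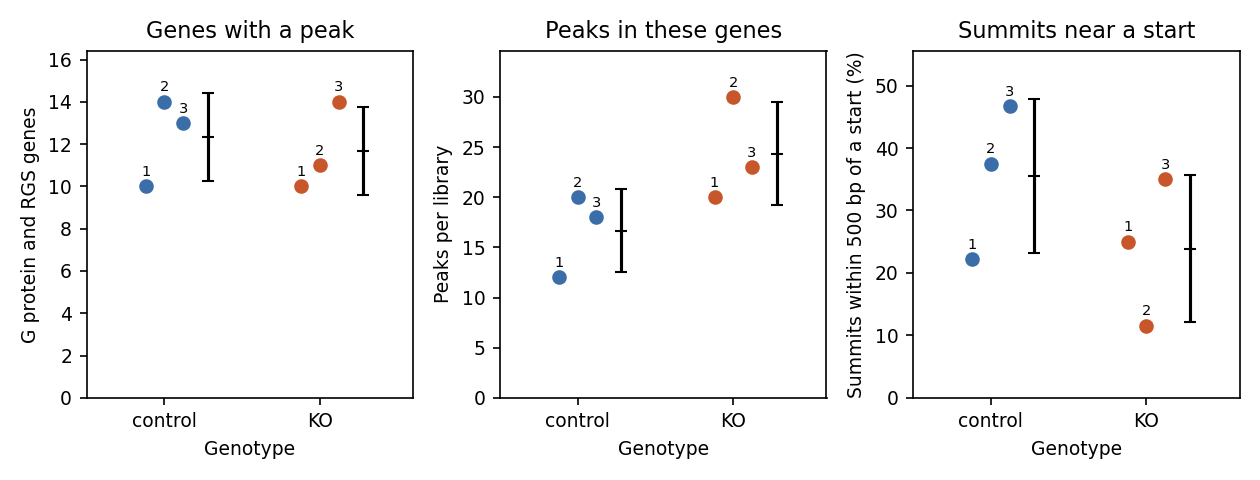
Number of G protein and RGS genes with a peak (left), number of peaks in them (middle) and percent of their summits within 500 bp of an annotated start (right) for control (blue) and KO (orange); points are single libraries with their numbers, and bars give the mean and SD of 3 libraries. Gene numbers run from 10 to 14 in both groups, and peaks from 12 to 20 in control and from 20 to 30 in KO.

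**Figure D4:**
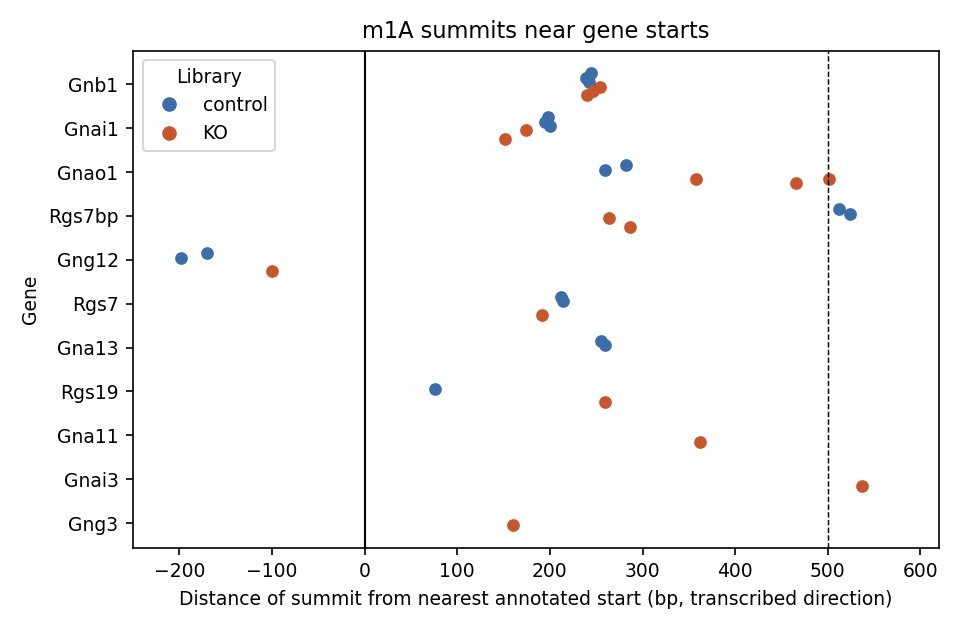
Distance in bp, in the transcribed direction, of m1A summits from the nearest annotated start (solid line at 0; dashed line at 500 bp) for genes with a summit close to a start; blue points are control libraries and orange points KO libraries. Summits of Gnb1 lie at 239 to 254 bp in all 6 libraries, while in Rgs7bp the control points lie at 512 to 524 bp and the KO points at 264 to 286 bp.

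The 3 relatives left out of the members were Gnal and Gng7, which encode subunits of striatal Golf, and Rgs9, which encodes an RGS protein. Gng7 had a peak in all 6 libraries with a highest fold of 11.6 to 17.5 per library. Gnal, the α subunit of Golf, was called in control 2 (6.41) and in all 3 KO libraries (8.42, 6.49 and 8.56), and Rgs9 in KO 2 alone (6.78). With these 3 genes added, regions called in all 6 libraries went from 4 to 5 and those called in every KO and no control library from 3 to 4, in both cases through Gng7.

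Around the members, the wider pathway was called more often than the 26.3% of all protein-coding genes with a peak. These genes were listed for their role, and the part of length or abundance was not tested. Of 20 effectors 14 had a peak (70.0%), of 16 regulators 13 (81.2%) and of 23 receptors 14 (60.9%). The effectors in all 6 libraries were Adcy5, the main striatal adenylyl cyclase, and Plcb4, a phospholipase C driven by Gq, the latter with a highest fold of 9.25 to 14.8 per library. Among receptors Gabbr1, a subunit of the GABA-B receptor, was called in all 6, with a highest fold of 5.10 to 9.99 per library. Arhgef1 and Adora1 had peaks in every KO list and in no control list. Whether the KO peaks of either gene shared a place was not analysed, and every KO library was deeper than every control. Arhgef1, a guanine nucleotide exchange factor driven by the product of Gna13, had folds of 8.97, 4.81 and 9.67 in KO 1, 2 and 3. Adora1, an adenosine receptor gene, had folds of 12.7, 5.57 and 11.7. That was 2 of the 41 genes with a peak in these 3 lists, beside 1.73% of all protein-coding genes with a peak, and 0 of the 41 had the opposite pattern. The regulators called in the most libraries were Gpsm1 and Gpr158, with 5 each. Gpsm1, which keeps α subunits in their GDP form, had folds of 6.48 and 11.9 in controls 1 and 2. In KO 1, 2 and 3 they were 23.4, 7.46 and 23.1, so the groups overlapped through KO 2. Gpr158 had folds of 5.44 and 6.16 in controls 2 and 3 and of 8.02, 9.97 and 8.43 in KO 1, 2 and 3.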

How the data were processed

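The data were 6 peak lists, each from a pull-down library and the input of its number. MACS2 2.2.6 called the peaks per library at a q-value limit of 0.01, per the file headers. Build GRCm38, HISAT2 2.1.0 and cutadapt 2.8 are listed in the submitters' processing notes. Control 1 kept all duplicate tags, and the other lists kept at most 1 per position. Per the file headers each peak has a pileup (a signal), a −log10 of its p-value and q-value, and a fold enrichment, a ratio over the local background. These deposited values are the authors' own and describe peaks within a list.

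Summits were placed in spans of RefSeq's GRCm38.p6 table with Python 3.11.15, which has 49993 genes with a span. Starts and sequences come from RefSeq's start windows (250 bp before to 50 bp after a start). Exons were not used here. Placing and merging were tested on simulated peaks. Libraries were compared by exact two-sided permutation over 20 assignments, adjusted by Benjamini-Hochberg over 6 measures. All members are named. Those in 3 or more libraries, or in all of 1 genotype, are given per library for the regions described. Where a library has several peaks in such a region, the highest fold is given. Members, lists and tests were chosen with earlier results of these data known. Counts of reads were not used, so no counting interval can be given.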

Additional observations from a re-analysis of the deposited data

How the results depend on the processing

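Alternatives were stricter peaks, another placing or merging, lists of equal length (3004 peaks), fewer libraries and the 3 relatives added. The difference in member genes with a peak, KO minus control, was −0.667 and turned to 1.00 with peaks of −log10 q 5 or more and to 0.333 with the relatives, and ran from −1.83 to 0.167 when 1 library was left out (0.167 without control 2 or KO 1). The difference in share turned from −0.0897 to 0.00368 with lists of equal length. Leaving out 1 library gave differences of 4.83 to 9.83 in peaks, −0.192 to −0.0205 in share and −18.2 to −5.46 percentage points near starts. Member genes in all 6 libraries, 6, fell to 4 at a fold of at least 4. They fell to 5 with peaks of −log10 q 5 or more, summits in 1 gene only or lists of equal length. Without control 1 and KO 2, 8 had a peak in every library left, which is an easier condition.

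Members in all KO and no control libraries went from 0 to 1 at a −log10 q of at least 5 (Rgs6), without KO 1 (Gna11) and without control 1 and KO 2 (Gnaq). Members in all controls and no KO library went from 1 to 0 at that q and at a fold of at least 4, which remove the control 1 peak of Rgs20, and to 2 without KO 3 (Rgs7 added). Regions in all 6 libraries went from 4 to 2 at that q and with lists of equal length. Regions in every library left numbered 5 without control 1 or KO 2, and 10 without both. KO-only regions went from 3 to 1 with lists of equal length, and from 3 to 4 without KO 2, without control 1 and KO 2, and with the relatives. At that q and at that fold the count stayed at 3, but its members changed. The Gnai2 region left, and the Gnb1 region at chr4:155527305-155527652 entered because its control peaks were removed. Control-only regions went from 0 to 2 without control 1, with or without KO 2 (Gna13 and Rgs20). Alternatives for regions split by genotype and for starts were chosen after seeing the data. With the number as a replicate block (sign flips, smallest p 0.25) the difference in peaks stayed at 7.67 (exact p = 0.25, n = 3). Same-numbered libraries correlated at −0.0335, −0.0473 and 0.0344 across the 5765 genes with a peak in some list. Pairs of unlike number ran from −0.0497 to 0.0695. The same-numbered values lay within the range of the others, so this measure cannot tell whether the numbers pair samples. Values near 0 here do not mean that control and KO lists shared few genes, since 504 of the 5765 had a peak in all 6. Precision is limited by 3 libraries per group and by depth.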
